A study of Mus musculus with 24 samples.

Results

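The genes described here handle glycerol and make glycerol 3-phosphate in brown adipose tissue (BAT) of mice. They are the glycerol kinase Gk, the aquaglyceroporin Aqp7, the cytosolic and mitochondrial glycerol 3-phosphate dehydrogenases Gpd1 and Gpd2, and the cytosolic phosphoenolpyruvate carboxykinase Pck1. They are defined by symbol, with no rule on their values, but were chosen with earlier results of these data known. All 5 were among the 12615 genes of the count table and passed the filter on low counts. RNA was sequenced from the brown fat of 24 mice in 4 groups of 6. All mice were homozygous for floxed alleles of the co-repressor genes TBLR1 (Tbl1xr1) and TBL1 (Tbl1x) and had received tamoxifen 3 weeks before the temperature protocol. BATdKO mice were Ucp1CreERT2 positive, a recombinase under the promoter of a brown adipocyte gene, so that the model addresses brown adipocytes and not the other cells of the tissue, and Cre- controls were Ucp1CreERT2 negative with the same floxed alleles. Mice of both genotypes were raised at 22°C and either moved to 30°C for 4 days or cooled through 18, 16 and 12°C, for 1 day each, to 8°C for 6 days. The labels call the mice female and put the tamoxifen at 5 years of age, whereas the text of the study gives male mice for its RNA-seq, fewer mice per group, fewer days at 8°C and an age in weeks. The labels were followed here. The question was how cold and the loss of both co-repressors act on the RNA of these genes.

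Brown adipocytes store triglyceride, and cold makes them break it down to fatty acids and glycerol. Glycerol leaves or enters through AQP7, and white adipocytes lose it because they have little glycerol kinase, whereas brown fat is known for phosphorylating glycerol to glycerol 3-phosphate and re-using it. Glyceroneogenesis reaches the same product from pyruvate and amino acids, with PEPCK as its committed step and GPD1 as its last, and GPD2 in the inner mitochondrial membrane oxidises glycerol 3-phosphate and passes the electrons to the respiratory chain.

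Promoters of 4 of the 5 members matched an entry in RefSeq (GRCm38.p6). They are shown because cold reaches brown adipocytes through noradrenaline and cyclic AMP, and CREB, a cyclic AMP target, and nuclear receptors such as PPARγ are classical regulators of Pck1, Gk and Aqp7. Each line gives 110 bases before and 10 bases after the start, 5′ to 3′ on the strand of the gene, for Gk at chrX:85776810-85776929 (minus strand), Aqp7 at chr4:41048127-41048246 (minus strand), Gpd2 at chr2:57237568-57237687 (plus strand) and Pck1 at chr2:173152963-173153082 (plus strand). Capitals mark the letters TGACG or AGGTCA on either strand.
Gk: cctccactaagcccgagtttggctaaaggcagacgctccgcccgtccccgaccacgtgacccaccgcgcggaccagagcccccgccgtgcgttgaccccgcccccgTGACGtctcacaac
Aqp7: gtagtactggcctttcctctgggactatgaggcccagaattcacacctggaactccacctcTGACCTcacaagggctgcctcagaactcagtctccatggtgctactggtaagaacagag
Gpd2: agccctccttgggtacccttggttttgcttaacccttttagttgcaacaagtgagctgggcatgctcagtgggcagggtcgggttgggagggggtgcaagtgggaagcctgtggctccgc
Pck1: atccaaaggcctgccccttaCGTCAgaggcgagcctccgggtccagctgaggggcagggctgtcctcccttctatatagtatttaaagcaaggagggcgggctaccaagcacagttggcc
The half-site of the cyclic AMP element, read as CGTCA, began 90 bases upstream of the Pck1 start, and the same motif, read as TGACG, began 4 bases upstream of the Gk start. The half-site bound by nuclear receptors, read as TGACCT, began 49 bases upstream of the Aqp7 start. A second Aqp7 start in RefSeq shared that match and had a further one 101 bases upstream. Over 32851 promoter windows of 300 bases, counting both strands, 20.8% held TGACG and 16.3% held AGGTCA, so that either match is common. The full element TGACGTCA, which contains TGACG and was present in 1.79% of windows, and TTGCGCAA, a C/EBP motif present in 0.183%, had no match in the windows of these 4 genes, and the windows of Gpd2 held none of these motifs.

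Total counts ranged from 699703 to 11527643 per library. The shallowest library, of the fourth Cre- mouse at 30°C, gave 21 counts of Gk and 7 of Aqp7 and stood apart from its group (mean r 0.875, against 0.931 to 0.978 for the others), while over all libraries Gk reached 556 counts, Aqp7 395, Pck1 4862, Gpd2 6145 and Gpd1 14542. The targeted genes were not lower under the BATdKO label. At 8°C Tbl1xr1 stood at 39.8 ± 4.00 CPM (counts scaled to the library size, mean ± SD, n = 6) in libraries labelled BATdKO and 20.9 ± 2.24 in Cre- libraries (edgeR log2 fold change 0.92, adjusted p = 0.00349), and a 3′ tag outside the deleted exons, whose position is not given in the sources used here, does not test a deletion. At 30°C the sixth mouse of each genotype went against its group, with 38.6 CPM of Tbl1xr1 in the Cre- mouse and 17.0 in the library labelled BATdKO, and results that rest on these mice are given with and without them. The tissue held its own markers, since all 8 brown adipocyte markers were in the table with a summed level of 434 to 3410 CPM, but 10 of 10 hepatocyte markers, Alb among them, summed to 31000 to 45000 CPM in every library. None of those 10 passed in any of the 4 comparisons of groups, kidney tubule markers (0 of 6) and B cell markers (0 of 4) were not in the table, and the part of liver RNA in the levels of Gk, Gpd1 and Pck1, which hepatocytes also express, was not tested. Xist (20.5 to 50.2 CPM) and the Y-linked Ddx3y (21.8 to 36.5 CPM) were both present in all 24 libraries, so that they do not tell the sex of the mice. Whether RNA or reads were shared between libraries was not tested. This bears on the levels, fold changes and ratios of every member, and on Gk also because it is X-linked.

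The 5 genes differed widely in level. Each read of this kit is a tag from the 3′ end of a transcript, so that CPM does not grow with transcript length. How fully the tags of each gene were captured and counted was not tested, so that levels are compared between genes as counted tags only. Averaged over the 24 libraries, Gpd1 stood at 929.7 CPM, Gpd2 at 409.4, Pck1 at 274.2, Gk at 35.3 and Aqp7 at 19.6. By counted tags both dehydrogenases and PEPCK were the abundant members in these libraries, and the channel and the kinase that handle glycerol itself the scarce ones. Hepatocyte markers were high in every library, and the part of liver RNA in this order was not tested. The order differed by group, since in BATdKO mice at 30°C the mean of Pck1 (289 CPM) was above that of Gpd2 (258) within the spread of both, and in Cre- mice at 30°C Gk (20.8) and Aqp7 (19.6) were within their spread. Gk lies at chrX:85701937-85776819, Aqp7 at chr4:41033074-41048139, Gpd1 at chr15:99717515-99725005, Gpd2 at chr2:57237635-57370719 and Pck1 at chr2:173153048-173159273 (GRCm38). Exons of Gk, Gpd1 and Gpd2 overlap a transcript on the other strand (Gm14764, Gm16537 and A930012O16Rik), none of which was in the table, and strand-specific counting is not given in the sources used here.

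**Figure D1:**
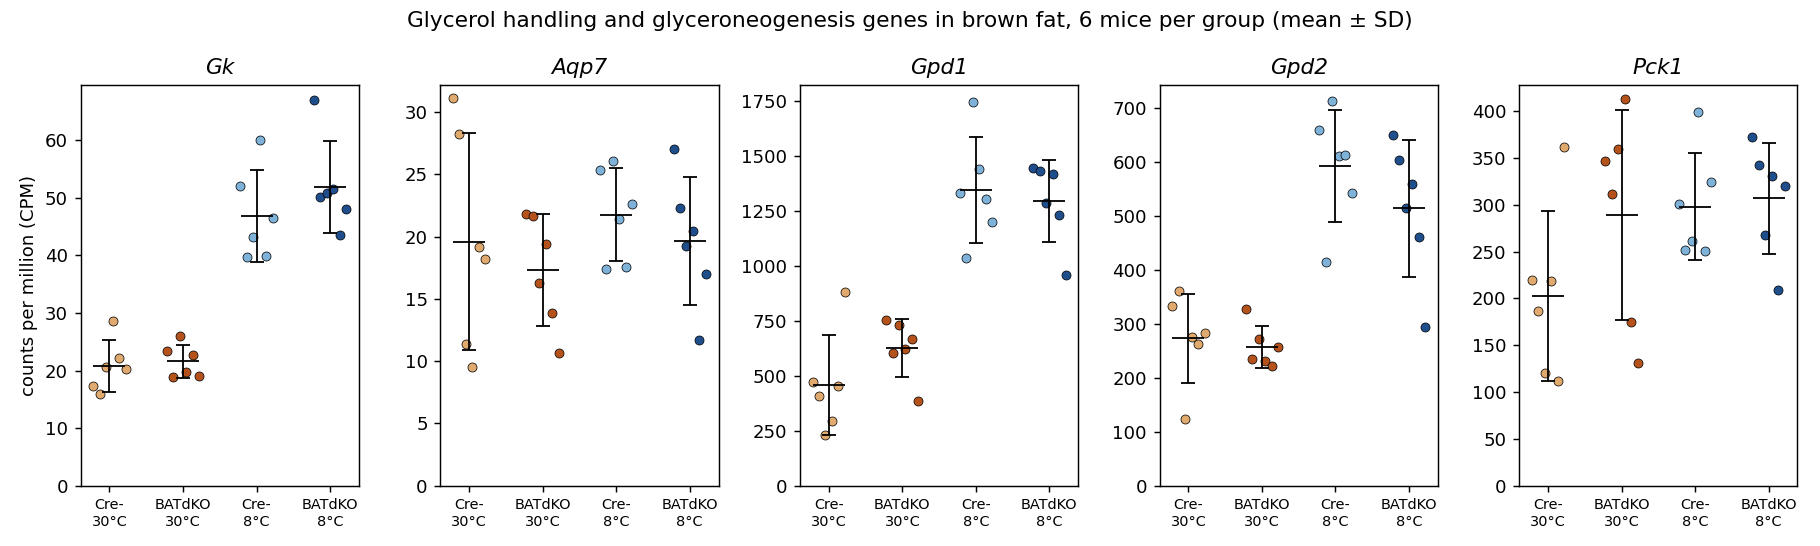
CPM (y axis, linear from 0, a separate scale per gene) of the 5 genes in each of the 4 groups (x axis), one point per mouse, with the mean and SD of 6 mice. Gk and Gpd1 at 8°C lay above every mouse of the same genotype at 30°C, whereas Aqp7 and Pck1 overlapped between all groups.

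At 8°C Gk, Gpd1 and Gpd2 rose in Cre- mice by 2.17-fold to 2.92-fold, and Aqp7 and Pck1 did not pass the threshold. These 3 of 5 members passed at an adjusted p under 0.1 (edgeR quasi-likelihood test, Benjamini-Hochberg over all genes), where 9.16% of the 12485 genes tested did so in either direction. The same 3 of 5 passed in BATdKO mice, where 7.07% of genes did. In these bulk samples more cells of a type and more RNA per cell cannot be told apart. By library number, all cold mice formed a separate block from all warm mice, with both genotypes mixed within each block. Whether preparation or sequencing differed between these blocks was not tested. Every comparison of temperatures is also a comparison of these blocks, so that such a difference cannot be separated from cold.

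Gk, the enzyme that traps glycerol in the cell by phosphorylation, ranged from 15.9 to 28.7 CPM with a median of 20.5 in Cre- mice at 30°C and from 39.8 to 60.1 with a median of 44.8 at 8°C. In BATdKO mice it ranged from 18.8 to 26.1 CPM (median 21.2) at 30°C and from 43.6 to 67.1 (median 50.5) at 8°C. Every mouse at 8°C exceeded every mouse at 30°C in both genotypes. Groups without overlap, in either direction, were found for 2.93% of all genes in Cre- mice and 3.0% in BATdKO mice. The increase was 2.38-fold in Cre- mice (95% interval 1.99 to 2.84, log2 fold change 1.25, SE 0.12, adjusted p = 1.84e-07 in edgeR) and 2.39-fold in BATdKO mice (2.01 to 2.85, log2 1.26, SE 0.12, adjusted p = 2.47e-07). Ordered by p, Gk was number 10 of 12485 genes in the cold response of Cre- mice and number 4 in that of BATdKO mice. Levels of the 4 groups ran from Cre- at 30°C through BATdKO at 30°C and Cre- at 8°C to BATdKO at 8°C, and the neighbours of different genotype at one temperature overlapped.

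Aqp7, the glycerol channel of adipocytes and of capillary endothelium, had no such step. It ranged from 9.56 to 31.1 CPM (median 18.7) in Cre- mice at 30°C and from 17.4 to 26.1 (median 22.0) at 8°C. In BATdKO mice the range was 10.7 to 21.8 CPM (median 17.8) at 30°C and 11.7 to 27.0 (median 19.9) at 8°C. All 4 groups overlapped, and the cold mice lay inside the spread of the Cre- mice at 30°C. The log2 fold change with cold was 0.04 in Cre- mice (95% interval -0.39 to 0.48, adjusted p = 0.958 in edgeR) and 0.15 in BATdKO mice (-0.30 to 0.60, adjusted p = 0.797). It had the fewest counts of the members, 7 to 395 per library, and an increase of up to 1.40-fold in Cre- mice lies inside the interval. Of 6 endothelial markers, 3 were higher at 8°C in Cre- mice and 2 in BATdKO mice, with summed levels of 128 to 169 CPM at 30°C and 157 to 220 at 8°C, and their part in the level of Aqp7 was not tested.

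Gpd1, which reduces dihydroxyacetone phosphate to glycerol 3-phosphate, ranged from 232.1 to 881.3 CPM with a median of 430.5 in Cre- mice at 30°C and from 1033 to 1745 with a median of 1317 at 8°C. In BATdKO mice it ranged from 385.9 to 754.1 CPM (median 646) at 30°C and from 957.5 to 1445 (median 1350) at 8°C. No mouse at 30°C reached the lowest mouse at 8°C, although the sixth Cre- mouse at 30°C stood well above its group. The increase was 2.92-fold in Cre- mice (95% interval 2.15 to 3.97, log2 1.55, SE 0.22, adjusted p = 2.24e-05 in edgeR) and 2.06-fold in BATdKO mice (1.52 to 2.79, log2 1.04, SE 0.21, adjusted p = 0.00309). It was the largest increase among the members in Cre- mice, on a baseline at 30°C that differed by mouse more than that of any other member (coefficient of variation 49.9%).

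Gpd2, which feeds electrons from glycerol 3-phosphate into the respiratory chain, ranged from 123.3 to 360.8 CPM (median 279.6) in Cre- mice at 30°C and from 414.6 to 713.5 (median 612.1) at 8°C. In BATdKO mice it ranged from 222.1 to 328.3 CPM (median 245.9) at 30°C and from 294.2 to 651 (median 537.2) at 8°C. The Cre- groups did not overlap. In BATdKO mice 5 of 6 cold mice exceeded every mouse at 30°C, and the sixth, at 294.2 CPM, lay below the highest of them. The increase was 2.17-fold in Cre- mice (95% interval 1.66 to 2.84, log2 1.12, SE 0.19, adjusted p = 0.000282 in edgeR) and 2.00-fold in BATdKO mice (1.53 to 2.61, log2 1.00, SE 0.19, adjusted p = 0.00156).

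Pck1, the committed step of glyceroneogenesis, ranged from 111.4 to 361.8 CPM (median 202.3) in Cre- mice at 30°C and from 250.8 to 398.6 (median 281.1) at 8°C. In BATdKO mice the range was 130.5 to 412.7 CPM (median 328.8) at 30°C and 208.6 to 372.3 (median 325.1) at 8°C. The cold groups were narrow and the warm groups wide, and all of them overlapped. The log2 fold change with cold was 0.56 in Cre- mice (95% interval 0.04 to 1.07, adjusted p = 0.218 in edgeR) and 0.08 in BATdKO mice (-0.42 to 0.59, adjusted p = 0.926). The call in Cre- mice turned on 1 library, since without the sixth Cre- mouse at 30°C the log2 fold change was 0.82 with an adjusted p of 0.0305. The exact two-sided permutation test over the 924 assignments of 6 mice against 6 gave p = 0.0476 for Pck1 in Cre- mice with that mouse included, and 0.00216, the smallest it can give, for Gk, Gpd1 and Gpd2.

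Markers of brown adipocytes moved with cold as well. Of the 8 markers, 5 were called higher at 8°C in each genotype and the summed level went from 434 to 1870 CPM at 30°C to 1880 to 3410 at 8°C. Of 6 general adipocyte markers 0 were called higher and 1 lower in each genotype, and of 7 adipocyte progenitor markers 1 was lower in Cre- and 2 in BATdKO mice. Of 12 skeletal muscle markers 10 were in the table, and 3 were called lower in cold Cre- mice, with summed levels of 5.47 to 6630 CPM at 30°C and 6.9 to 953 at 8°C. The third Cre- mouse at 30°C had the highest muscle level and the lowest Gpd1 (232.1 CPM) and Gpd2 (123.3), and without it the log2 fold change with cold in Cre- mice was 1.41 for Gpd1 (adjusted p = 3.46e-05 in edgeR) and 0.96 for Gpd2 (adjusted p = 0.000203). What part the other marker levels have in the increases of Gk, Gpd1 and Gpd2 was not tested. Groups that do not overlap in cold, which Gk, Gpd1 and Gpd2 had in Cre- mice, were found for 2.93% of all genes tested. In BATdKO mice, where Gk and Gpd1 had them, the share was 3.0%.

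**Figure D2:**
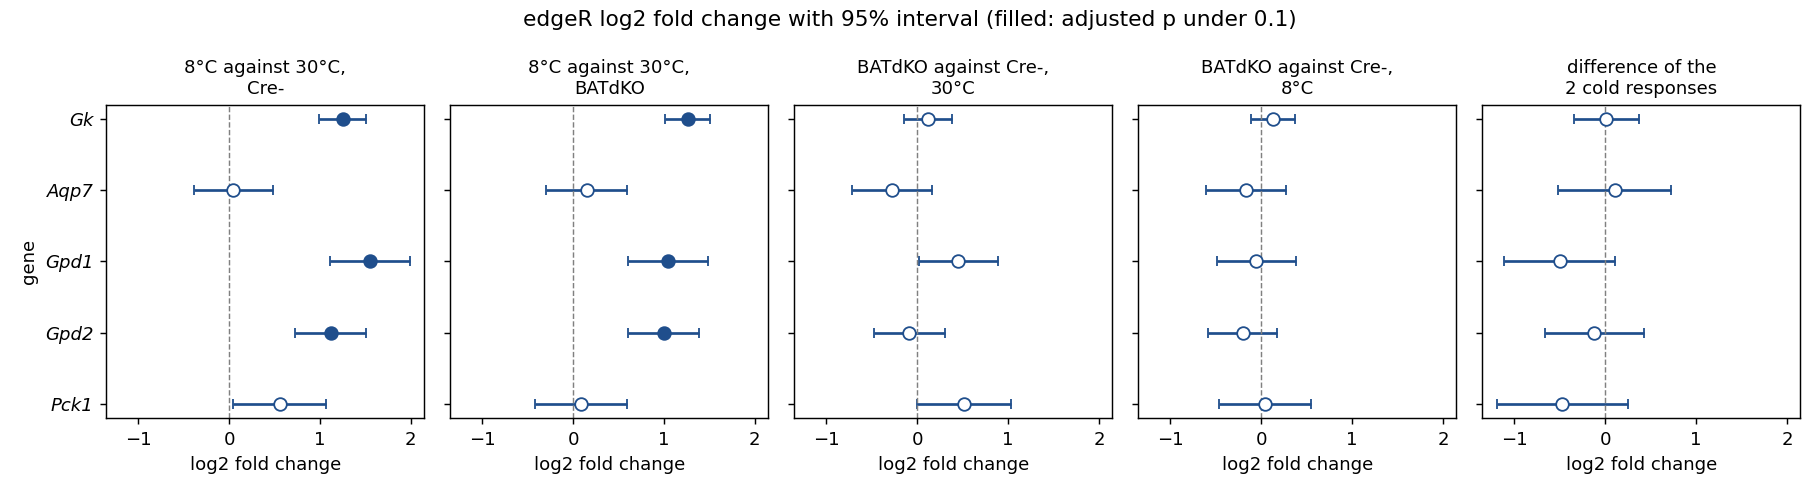
edgeR log2 fold change (x axis) of each gene (y axis) with its 95% interval in the 4 comparisons and in the difference of the cold responses between genotypes. Filled points, with an adjusted p under 0.1, are Gk, Gpd1 and Gpd2 in both cold comparisons, and every interval of the comparison of genotypes at 8°C includes 0.

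Between genotypes at 8°C none of the 5 members passed, and 1.82% of all genes did. None had an unadjusted p under 0.05 either (edgeR quasi-likelihood test). The log2 fold change of libraries labelled BATdKO against Cre- was 0.13 for Gk (95% interval -0.11 to 0.37), -0.17 for Aqp7 (-0.61 to 0.27), -0.05 for Gpd1 (-0.48 to 0.38), -0.21 for Gpd2 (-0.59 to 0.18) and 0.04 for Pck1 (-0.47 to 0.55). Gk had the narrowest interval, with a level under BATdKO between 0.93 and 1.29 times that of Cre- mice, whereas the interval of Aqp7 reached down to 0.65 times and that of Pck1 up to 1.46 times.

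At 30°C none of the 5 members passed between genotypes with all mice, where 0% of all genes did in edgeR (0 of 12485 genes, of which 1301 had an unadjusted p under 0.05, and 90 genes in DESeq2). Gpd1 and Pck1 leaned to the libraries labelled BATdKO. For Gpd1, 5 of the 6 BATdKO mice, at 602.9 to 754.1 CPM, exceeded 5 of the 6 Cre- mice, at 232.1 to 470.5 CPM, and the sixth mouse of each genotype lay on the other side, at 385.9 CPM in BATdKO and 881.3 in Cre-. The log2 fold change was 0.45 (SE 0.21, unadjusted p = 0.042, adjusted p = 0.451 in edgeR). For Pck1, 4 BATdKO mice stood at 310.9 to 412.7 CPM and the fifth and the sixth at 174.4 and 130.5, against 111.4 to 219.3 in 5 Cre- mice and 361.8 in the sixth (log2 fold change 0.51, SE 0.25, unadjusted p = 0.0496, adjusted p = 0.478 in edgeR).

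The sixth mouse of each genotype at 30°C was also the one whose Tbl1xr1 level went against its group. Without the sixth mouse of both genotypes at 30°C, 2 of 5 members passed, Gpd1 with a log2 fold change of 0.85 (adjusted p = 0.00264 in edgeR) and Pck1 with 0.93 (adjusted p = 0.0123), and 500 genes of 12500 passed in all. These mice were singled out from these same data and were those on the other side for Gpd1. The fit without them is therefore no independent test of the difference. Leaving out the sixth Cre- mouse alone gave 0.76 for Gpd1 (adjusted p = 0.0207) and 0.78 for Pck1 (adjusted p = 0.0914). Of the 24 fits that left out 1 mouse, the other 23 called no member in this comparison, among them that without the sixth BATdKO mouse. Gk (0.17), Aqp7 (-0.22) and Gpd2 (-0.08) did not pass without both sixth mice. The sixth Cre- mouse also had the highest summed level of brown adipocyte markers of its group, 1870 CPM against 434 to 1020, and of general adipocyte markers, 3070 against 477 to 1830. The sixth BATdKO mouse had the lowest of its group, with 845 and 805 CPM, and the part of these marker levels in the values of Gpd1 and Pck1 was not tested.

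The cold response itself was compared between genotypes by the interaction term, and 0 of 5 members passed, where 0.0961% of genes did. The difference of log2 fold changes, BATdKO minus Cre-, was 0.01 for Gk (95% interval -0.35 to 0.37), 0.10 for Aqp7 (-0.52 to 0.73), -0.50 for Gpd1 (-1.11 to 0.11), -0.12 for Gpd2 (-0.66 to 0.42) and -0.47 for Pck1 (-1.20 to 0.25). The interval of Gk was again the narrowest of the 5. Without the sixth mouse of both genotypes at 30°C the term for Gpd1 was -0.91 (adjusted p = 0.0676 in edgeR) and that for Pck1 -0.89 (adjusted p = 0.235). Here too the mice left out had been singled out from these same data.

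Ratios within a library do not depend on its depth, and they are given without a test. They are ratios of counted tags, and the part of liver RNA in them was not tested either. The geometric mean of Gpd1 was 20.4 times that of Gk in Cre- mice at 30°C (range 10.2 to 43.5), 28.6 times in BATdKO mice at 30°C, 28.6 times in Cre- mice at 8°C and 24.9 times in BATdKO mice at 8°C. Both genes rose with cold, and their ratio stayed inside the range of the Cre- mice at 30°C. Gpd1 exceeded Gpd2 1.61-fold in Cre- mice at 30°C (1.06 to 3.11) and 2.27-fold at 8°C (2.02 to 2.49), and the values for BATdKO mice were 2.40-fold (1.5 to 3.01) and 2.57-fold (2.22 to 3.26). Pck1 exceeded Gk 9.15-fold in Cre- mice at 30°C (5.01 to 17.8) and 6.33-fold at 8°C (5.78 to 6.99), and in BATdKO mice 12.4-fold (6.84 to 20.9) and 5.86-fold (4.78 to 6.82). The ratio of Pck1 to Gk thus varied little between mice at 8°C, with an SD of log2 ratios of 0.10 in Cre- mice and 0.21 in BATdKO mice, and more at 30°C, where the SD was 0.71 and 0.64.

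**Figure D3:**
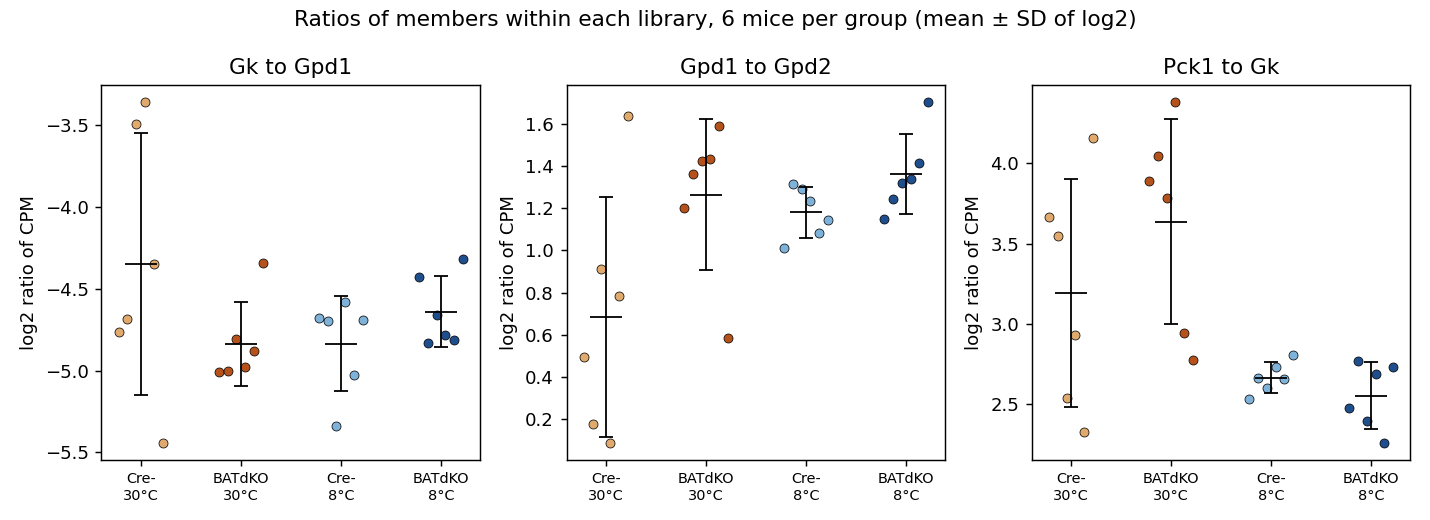
log2 ratio of CPM (y axis) of Gk to Gpd1, Gpd1 to Gpd2 and Pck1 to Gk in each mouse of the 4 groups (x axis), with the mean and SD of 6 mice. The 6 Cre- mice at 8°C span 2.53 to 2.81 for Pck1 to Gk, whereas the 6 at 30°C span 2.33 to 4.16.

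Some pairs of members varied together from mouse to mouse. After subtracting group means, Gpd1 and Gpd2 were correlated over the 24 mice with Pearson's r = 0.607 and Spearman's rho = 0.623 (permutation p = 0.0134 and 0.0026, adjusted over the 10 pairs 0.0483 and 0.013), and r was 0.549 without the 2 mice farthest from the median. Within groups r was 0.574 in Cre- and 0.267 in BATdKO mice at 30°C, and 0.900 and 0.990 at 8°C. Aqp7 went with Gpd2 (r = 0.574, rho = 0.671, permutation p = 0.0131 and 0.00098, adjusted 0.0483 and 0.0098, r = 0.705 without the 2 farthest mice), with r within groups of 0.242 in BATdKO mice at 30°C to 0.705 in Cre- mice at 8°C. Aqp7 and Gpd1 had r = 0.560 and rho = 0.599 (permutation p = 0.0306 and 0.00674, adjusted 0.0765 and 0.0225, r = 0.534 without the 2 farthest mice), with r of 0.519 to 0.698 within groups. Gpd1 and Pck1 had r = 0.584 and rho = 0.538 (permutation p = 0.0145 and 0.0161, adjusted 0.0483 and 0.0403). Without the 2 mice farthest from the median of Gpd1 r was 0.353, so that its size depended on those mice. It was 0.641 without the shallowest library. Within groups r of this pair was 0.152 and 0.285 at 8°C and 0.677 and 0.722 at 30°C. The 4 pairs with Gk had r between -0.152 and 0.274 over all mice, and none passed. Within groups of 6 mice the r of Gk and Pck1 was 0.932 in Cre- and 0.737 in BATdKO mice at 8°C, and -0.06 and 0.283 at 30°C. That of Gk and Aqp7 went from -0.857 in Cre- mice at 30°C, which include the shallowest library, to 0.870 in BATdKO mice at 8°C. Values of r over 6 mice thus varied widely.

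The genes whose log2 CPM followed each member most closely over all 24 libraries are named by Pearson's r, which here includes the step between temperatures and is given as a description. For Gpd1 they were Ucp1 (r = 0.986), the uncoupling protein of brown fat, Letm1 (0.965) and Thrsp (0.963). For Gk they were Ankrd9 (0.937), Slc25a34 (0.930) and Ackr3 (0.916), and for Gpd2 the phosphofructokinase Pfkp (0.954), the pyruvate dehydrogenase subunit Pdhb (0.953) and Letmd1 (0.951). Pck1 was nearest to Fabp4 (0.927), the fatty acid binding protein of adipocytes, then to Hibadh (0.894) and Gm13772 (0.894), and Aqp7 to Ubl3 (0.849), Mrpl42 (0.846) and Ly6c1 (0.837). Ucp1 rose in cold by 3.10 on the log2 scale in Cre- mice (SE 0.44, adjusted p = 2.66e-05 in edgeR), a larger step than that of Gpd1. Fabp4, like Pck1, did not pass with cold in Cre- mice (log2 fold change 0.51, adjusted p = 0.633).

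The steps around the members were described by 6 lists of 62 genes, also chosen with earlier results of these data known. Of these genes, 54 were in the table and tested. Hepatocyte markers were high in every library, and the part of liver RNA in the levels and changes of the listed genes was not tested. In Cre- mice 19 were called higher and 4 lower at 8°C, 42.6% of those tested, where 9.16% of all genes were called. In BATdKO mice 22 were higher and 0 lower, 40.7%, where 7.07% of all genes were called. The median log2 fold change was 0.28 and 0.22, where that of all genes was -0.02 and 0.00. The 5 members had a median of 1.12 and 1.00. Between genotypes at 8°C 5 of the 54 were higher and 0 lower, 9.26%, where 1.82% of all genes were called. At 30°C 0 passed, where 0% of all genes did.

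Relatives of the members were few in the table. Of the other glycerol channels, kinases and phosphatases, 4 of 8 were in the table. Gpd1l, the paralog of Gpd1, fell by 0.37 on the log2 scale in Cre- mice (SE 0.12, adjusted p = 0.0674 in edgeR), and Pgp, a phosphatase of glycerol 3-phosphate, rose by 0.34 (adjusted p = 0.0191) and by 0.38 in BATdKO mice (adjusted p = 0.0108). Neither Aqp9 nor Aqp11 passed, Aqp9 with a log2 fold change of 0.02 in Cre- mice, and the part of liver RNA in their levels was not tested. Pck2, the mitochondrial form of PEPCK, was low, at 5.53 CPM in Cre- mice at 30°C, and fell by 0.78 in Cre- mice (SE 0.26, adjusted p = 0.0741).

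Upstream of Pck1, pyruvate carboxylase Pcx fell by 0.18 on the log2 scale in Cre- mice (adjusted p = 0.0718 in edgeR), while the mitochondrial pyruvate carrier subunit Mpc2 rose by 1.09 (adjusted p = 6.21e-05) and malate dehydrogenase Mdh2 by 0.28 (adjusted p = 0.0832). These were the 4 of 10 genes of oxaloacetate and pyruvate supply, with Pck2, that passed in Cre- mice. In BATdKO mice 3 of 10 passed, all higher, Mpc2, Mdh2 and Got1. Between PEPCK and GPD1, 4 of 7 triose phosphate genes rose in Cre- mice and 5 of 7 in BATdKO mice, and none fell. Enolase Eno1 rose by 1.02 in Cre- mice (adjusted p = 0.00113) and 0.94 in BATdKO mice (adjusted p = 0.00362), and Aldoa, Pgam1 and Pgk1 passed in both, all of which also serve glycolysis.

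Downstream, 5 of 10 genes that build lipid on glycerol 3-phosphate rose in Cre- mice and 6 in BATdKO mice, and none was called lower. Agpat2, which adds the next acyl chain, rose by 1.27 on the log2 scale in Cre- mice (SE 0.34, adjusted p = 0.0225 in edgeR), and the first acyltransferases Gpam and Gpat4 rose by 0.37 and 0.30 (adjusted p = 0.0151 and 0.0757). Dgat2, which closes the triglyceride, did not follow temperature in Cre- mice (log2 fold change -0.01) but rose by 0.80 in BATdKO mice (adjusted p = 0.000111), and it was the gene among the 54 whose cold response differed between genotypes (difference 0.81, SE 0.17, adjusted p = 0.0716). On the side of glycerol release, 3 of 9 genes rose in Cre- mice and 4 in BATdKO mice. Mgll, the monoglyceride lipase that sets glycerol free, rose by 0.71 (SE 0.07, adjusted p = 4.74e-07) and 0.53 (adjusted p = 4.95e-05). Pnpla2 and Lipe, the lipases before it, did not pass (0.42 and 0.24 in Cre- mice, adjusted p = 0.196 and 0.548).

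Of the regulators known to act on Pck1, Gk or Aqp7, 14 of 16 were tested. The coactivator Ppargc1a rose by 1.27 on the log2 scale in Cre- mice (adjusted p = 3.7e-06 in edgeR) and 0.95 in BATdKO mice (adjusted p = 0.00023), and Cebpb rose by 0.87 and 0.48 (adjusted p = 0.000171 and 0.0476). Ppargc1b and Nr3c1, the glucocorticoid receptor, passed in Cre- mice, and Pparg in neither (0.27 and -0.38). Irs2, an adaptor of the insulin receptor, fell by 0.43 in Cre- mice (adjusted p = 0.0465) and rose by 0.39 in BATdKO mice (adjusted p = 0.0799), with an adjusted p of 0.105 for the difference. At 8°C Irs2, Foxo1 and Cebpa were higher in libraries labelled BATdKO, by 0.99, 0.42 and 0.25 (adjusted p = 5.22e-05, 0.0127 and 0.0871), as were Dgat2 and Lpl, while none of the 5 members passed in that comparison.

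**Figure D4:**
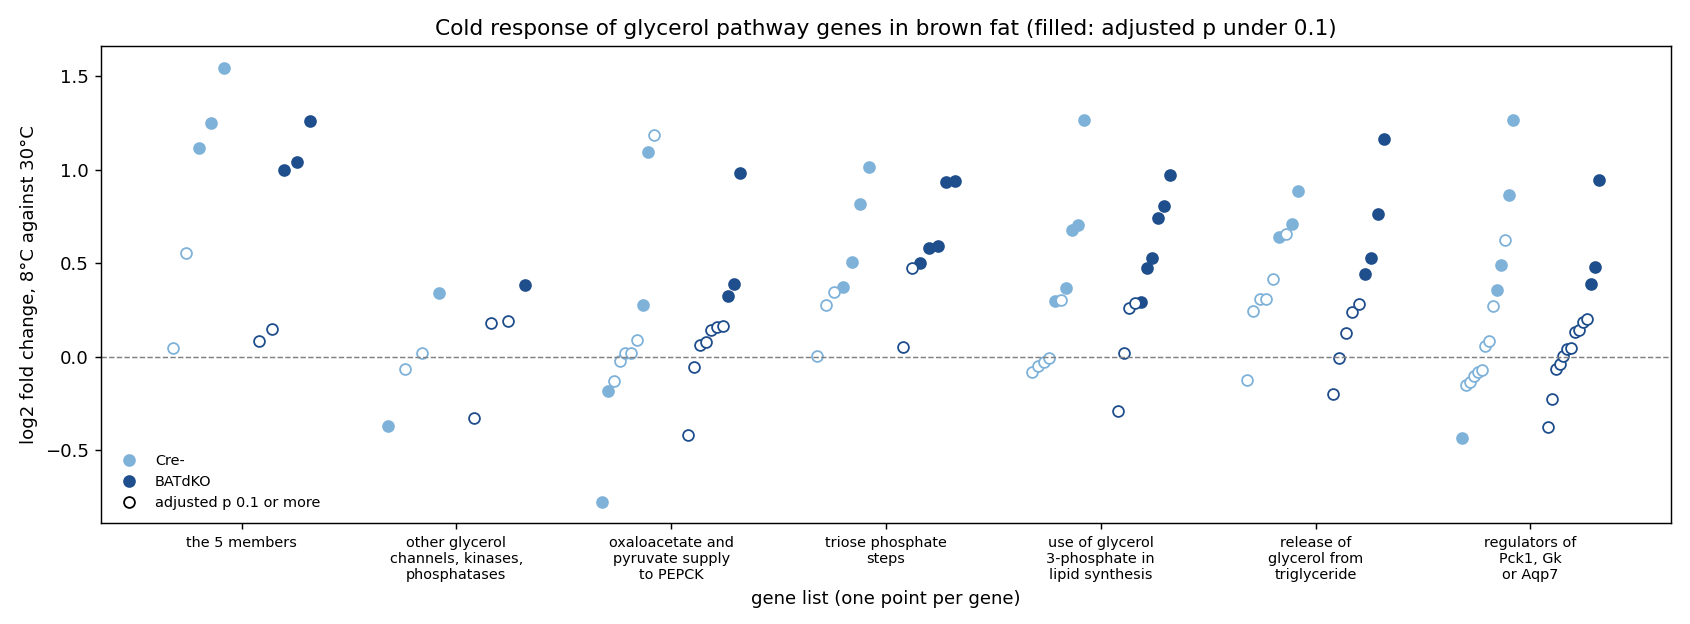
edgeR log2 fold change at 8°C against 30°C (y axis) of each gene in Cre- (light) and BATdKO mice (dark), by gene list (x axis), filled where the adjusted p was under 0.1. Gpd1, Gk and Gpd2 lie at 0.997 or above in both genotypes, and the triose phosphate list lies at or above 0 throughout.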

How the data were processed

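BAT RNA of 24 mice was prepared with QuantSeq 3′ FWD kits. The authors trimmed forward reads with BBDuk, aligned them with STAR to GRCm38 and counted them per gene with Rsubread. What they deposited is a table of raw counts of 12615 genes, not normalized. Annotation release and rule for low counts are not given in the sources used here. Mice were grouped by the genotype and temperature in the labels, and numbered within groups in accession order.

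Counts were analysed with edgeR 4.0.16 (R 4.3.3): TMM factors, filterByExpr (12485 genes kept, 130 removed) and a quasi-likelihood fit with 1 mean per group over all 24 libraries. P-values were adjusted by Benjamini-Hochberg over all genes tested, with the threshold of 0.1 used in the study. SE is the absolute log2 fold change over the square root of F, and intervals are 95%. CPM uses TMM library sizes, and log2 CPM a prior count of 1. Correlations used 100000 permutations. The fit was tested on simulated data.

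The members, defined by symbol, and the lists were chosen with earlier results of these data known. Named genes are the members, both targeted genes, listed pathway genes, markers, and the 3 genes most like each member by Pearson's r. Motifs were searched in RefSeq promoters, 250 bases before to 50 after the start, and TGACG was added after the sequences were seen. Gene positions are from GENCODE vM21. Alternatives were DESeq2 1.42.0, RLE factors, no filter, robust dispersion, a fit of only the groups compared, an exact permutation test, and leaving out each mouse, the shallowest library or the sixth mice at 30°C.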

Additional observations from a re-analysis of the deposited data

Results flagged for a closer look

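Of 40 groups of 6 values examined for a mouse far from the others, 5 held one, where chance alone gives about 1 in 20. Gk in BATdKO mice at 8°C was highest in the first mouse, at 67.06 CPM against 43.6 to 51.5 in the other 5, with a gap of 0.665 of the range. Gpd1 in Cre- mice at 30°C was highest in the sixth mouse, at 881.3 CPM against 232.1 to 470.5 (0.633 of the range). In the same mouse Tbl1xr1 stood at 38.6 CPM against 16.4 to 24.6 (0.632). In the sixth BATdKO mouse at 30°C Tbl1x was lowest, at 39.64 CPM against 53.3 to 59.8 (0.678), and the log2 ratio of Gk to Gpd1 was highest, at -4.339 (0.696). The first Gk value did not decide a call, since Gk passed with cold in BATdKO mice without that mouse too. The cold response of Dgat2, a triglyceride synthase, differed between genotypes by 0.8119 on the log2 scale (edgeR interaction, adjusted p = 0.0716), with 270.6 CPM in Cre- and 298.3 in BATdKO mice at 30°C and 270.2 and 521.4 at 8°C.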

How the results depend on the processing

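Of 790 values of single members under the alternatives, 750 kept their direction and their side of the threshold, 0 lost a call, 8 gained one and 32 changed sign, all 32 for members that had not passed. Gk, Gpd1 and Gpd2 passed with cold in both genotypes under every alternative run. Both sixth mice at 30°C were singled out from these same data. Leaving them out called 2 members between genotypes at 30°C and 1 in the interaction (Gpd1), where 0 passed with all mice, and gave -0.0133 for Aqp7 with cold in Cre- mice, -0.0736 for Pck1 with cold in BATdKO mice and -0.0418 for the interaction of Gk. Without the shallowest library the values were -0.00616 for Aqp7 with cold in Cre- mice and -0.032 for the interaction of Gk. The cause of these changes was not tested. When each mouse was left out in turn, members called between genotypes at 30°C ranged from 0 to 2 and log2 fold changes from -0.118 to 0.0366 for Gpd1 and -0.0173 to 0.141 for Pck1 between genotypes at 8°C, -0.238 to 0.0148 for Gpd2 at 30°C, -0.0972 to 0.215 for Aqp7 with cold in Cre- mice, -0.0731 to 0.212 for Pck1 with cold in BATdKO mice, and -0.0681 to 0.0969 (Gk), -0.075 to 0.235 (Aqp7) and -0.224 to 0.0287 (Gpd2) in the interaction. Over all genes, calls between genotypes at 8°C went from 227 to 477 with only those groups and 138 without the fifth BATdKO mouse. At 30°C they went from 0 to 90 in DESeq2, 500 without both sixth mice and 370 without the Cre- one alone, and in the interaction from 12 to 51, 44 and 32, with 7 to 37 over all mice left out singly. With cold in BATdKO mice they went from 883 to 574 without the fourth BATdKO mouse at 8°C. No paired analysis was possible because the labels do not number mice across groups, and mice were numbered here in accession order. The lowest count of a member was 7, of Aqp7 in the shallowest library.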
